A study of Mus musculus with 8 samples.

Results

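The transcripts of 10 genes that report on and restrain signalling through the extracellular signal-regulated kinases (ERK) were compared between libraries labelled as control and libraries labelled as control with tranilast. The genes were taken by symbol, by a rule that uses no measured value but was set with earlier results of these data known: the mitogen-activated protein kinase (MAPK) phosphatases Dusp1, Dusp4, Dusp5 and Dusp6, the receptor signalling inhibitors Spry2, Spred1 and Spred2, and the immediate-early transcription factors Egr1, Fos and Jun. Each symbol had 1 row among the 22063 genes of the deposited table, and all 10 passed the expression filter, which left 10770 genes. There were 8 libraries, 4 in each group, from mice labelled with the genotype WT and the tissue Liver. The series design adds a high-fat and high-cholesterol (HFHC) diet, which both groups shared, and the study's methods describe male C57BL/6J mice given vehicle (Na-CMC) or tranilast, an anti-allergic drug, once daily by mouth in the later weeks of that diet. The labels give no age, dose or duration, and the methods do not say which of the dose levels the sequenced mice received.

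In this pathway, a growth factor receptor activates RAS at the membrane, RAS recruits the RAF kinases, RAF activates MEK, and MEK phosphorylates ERK. Active ERK phosphorylates transcription factors bound to the promoters of immediate-early genes such as Fos and Egr1, which are switched on without new protein synthesis, and their protein products go on to regulate a later wave of genes. The same activity induces its own brakes: dual-specificity phosphatases that remove both phosphates from ERK or from its relatives JNK and p38, and Sprouty and Spred proteins that act on the steps from receptor to RAF. Transcripts of these genes are therefore widely read as a record of recent pathway activity. They do not measure the phosphorylation of ERK. In macrophages the pathway is engaged by the CSF-1 receptor and by Toll-like receptors.

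The libraries held between 12053036 and 15618787 estimated reads, and the limit that a count of 0 allows, 3 counts, was at most 0.249 CPM (counts scaled to a common library total). Although the labels name liver, hepatocyte markers were nearly absent: Alb, the albumin gene, did not exceed 2 counts in any library, and 4 of 10 hepatocyte markers had none in any library. Of 14 macrophage markers 11 were tested, and Mertk, Marco and Mrc1 had at most 3 counts in any library. The summed level of the 14 was between 10290 and 11054 CPM in the control libraries and between 9282 and 9938 CPM in the tranilast libraries. There edgeR called 8 of the 11 lower and 2 higher (adjusted p-value under 0.05), against 28.8% and 28.2% of all tested genes. Of 6 Kupffer cell markers, Clec4f, Vsig4, Timd4 and C6 had 0 counts in every library. The summed level of neutrophil markers was between 4.28 and 5.90 CPM in the control and between 6.71 and 8.47 CPM in the tranilast libraries, that of B cell markers between 57.5 and 64.4 and between 61.6 and 77.8 CPM, and that of T and NK cell markers between 2.37 and 3.01 and between 0.799 and 1.78 CPM. Each of these 3 sums rested almost wholly on 1 gene (Csf3r, Ighm and Lck), and the other markers of the 3 lists had at most 4 counts in any library. The values below are therefore those of a macrophage-marker-positive sample labelled as liver, in which a smaller number of cells of a type cannot be told apart from less RNA per cell. The part of these shifts in marker levels in the results below was not tested.

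The members differed widely in level. On the deposited FPKM scale, which allows genes of different length to be compared, Spred1 was the most abundant, with 90.4 ± 2.82 FPKM (SD, n = 4) in the control group, followed by Egr1 with 43.2 ± 2.81 and Dusp4 with 38.4 ± 1.58. Spred2 (26.8 ± 0.936), Jun (25.8 ± 1.39), Fos (22.7 ± 1.67) and Dusp6 (18.1 ± 0.594) formed a middle range. Dusp1 (4.13 ± 0.332), Dusp5 (2.47 ± 0.265) and Spry2 (1.80 ± 0.183) lay far below. Among the control libraries, the neighbours Egr1 and Dusp4, Spred2 and Jun, and Jun and Fos overlapped in this order, whereas the other neighbours did not. Among the tranilast libraries only the neighbours Dusp5 and Spry2 overlapped. In the tranilast group, the order of the middle range was different: Jun had 28.0 ± 0.846 FPKM (SD, n = 4) and every value was above those of Spred2 (23.8 ± 0.808), and Dusp6 had 21.9 ± 1.13 FPKM and every value was above those of Fos (19.4 ± 0.722).

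**Figure D1:**
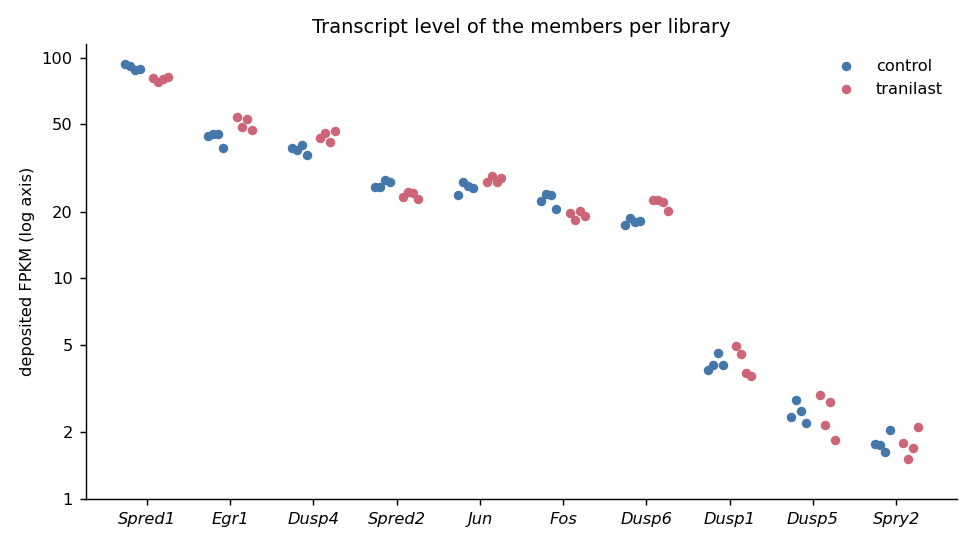
Deposited FPKM (log axis) of the 10 members, each point 1 library, with 4 control and 4 tranilast libraries per gene and genes in the order of their control mean. Dusp6 lies below Fos in the control group and above it in the tranilast group, and the tranilast libraries of Spred1 lie between 77.8 and 81.7 FPKM, below all control libraries.

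The stretches just upstream of the RefSeq transcription starts are shown for 7 members, because immediate-early and feedback genes are known for sites of the factors SRF, CREB and AP-1 close to their starts. They were read from the RefSeq promoter table of GRCm38.p6 for 8 of the 10 members, all but Dusp4 and Egr1. Spry2 was read and searched but is not printed. Each line gives the 150 bases before the start, 5′ to 3′ on the strand of the gene. Capitals mark matches, on either strand, to the cyclic AMP response element CRE (TGACGTCA), its core TGACG, the CRE-like site TGACATCA, the TATA sequence TATAAA and the CArG box, which SRF binds. The positions are chr12:85473740-85473889, plus strand for Fos, chr4:95052223-95052372, minus strand for Jun, chr17:26508473-26508622, minus strand for Dusp1, chr19:53528995-53529144, plus strand for Dusp5, chr10:99263081-99263230, plus strand for Dusp6, chr2:117120921-117121070, plus strand for Spred1 and chr11:19924292-19924441, plus strand for Spred2.
Fos: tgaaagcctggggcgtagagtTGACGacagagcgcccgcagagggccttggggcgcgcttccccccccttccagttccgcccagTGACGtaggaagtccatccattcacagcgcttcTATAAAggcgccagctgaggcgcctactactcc
Jun: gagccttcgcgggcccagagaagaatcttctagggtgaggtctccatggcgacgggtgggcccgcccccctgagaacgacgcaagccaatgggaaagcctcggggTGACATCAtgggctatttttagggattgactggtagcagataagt
Dusp1: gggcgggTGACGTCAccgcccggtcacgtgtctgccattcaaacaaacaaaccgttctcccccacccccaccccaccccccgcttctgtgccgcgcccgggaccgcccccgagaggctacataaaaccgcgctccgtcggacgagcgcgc
Dusp5: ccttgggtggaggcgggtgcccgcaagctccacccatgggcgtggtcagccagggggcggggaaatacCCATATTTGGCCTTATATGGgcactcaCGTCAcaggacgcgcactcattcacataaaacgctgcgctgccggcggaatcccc
Dusp6: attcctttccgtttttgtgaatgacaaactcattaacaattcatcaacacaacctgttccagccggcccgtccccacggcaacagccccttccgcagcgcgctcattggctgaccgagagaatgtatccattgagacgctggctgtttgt
Spred1: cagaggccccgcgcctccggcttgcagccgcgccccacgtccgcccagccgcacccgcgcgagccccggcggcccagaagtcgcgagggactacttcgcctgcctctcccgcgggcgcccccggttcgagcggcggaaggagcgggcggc
Spred2: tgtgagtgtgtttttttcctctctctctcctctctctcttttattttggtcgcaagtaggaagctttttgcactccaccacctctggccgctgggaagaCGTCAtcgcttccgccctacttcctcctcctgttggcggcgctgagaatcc

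In the 250 bases before the start, Fos held the TATA sequence from base 33 to base 28 before the start and 2 CRE cores, the nearer one beginning 66 bases before it. The CRE-like site of Jun, a known site of Jun and ATF proteins, began 45 bases before its start. Dusp1 held 1 complete CRE, which contains the core on both strands, and 1 further core beginning 191 bases before the start, outside the printed stretch. Dusp5 was the only one of the 8 members read with CArG boxes, which lay next to each other, from base 82 to base 73 and from base 72 to base 63 before the start. Among all 32851 promoter stretches of that table and length, 1.47% held a CArG box, 1.55% a complete CRE, 2.93% the CRE-like site, 12.4% the TATA sequence and 17.8% a CRE core, against 4 of the 8 members for the core. The AP-1 motif TGANTCA (6.75% of all promoters), the ETS motif CCGGAA (12.03%) and the EGR motif GCGNGGGCG (4.70%) had no match in any of the 8, which says only that these letters are not in this window. The serum response element for which Fos is known lies further upstream.

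Of the 10 members, 1 rose and 3 fell with tranilast in edgeR's quasi-likelihood test (adjusted p-value under 0.05). Dusp6 was the gene that rose, and Spred1, Spred2 and Fos were those that fell. Among all tested genes 28.2% rose and 28.8% fell, 57% in either direction, against 4 of the 10 members. All 4 changes were small, from Fos, which fell by 21.4%, to Dusp6, which rose by 11.6%, and 70.7% of all tested genes had a smaller absolute log2 fold change than Fos. No member (0 of 10) reached the log2 fold change of 1.5 that the study required in either direction, in edgeR and in every alternative including DESeq2 and limma-voom, against 1.11% of all genes, and the largest absolute log2 fold change of a member was 0.35 (4 members had an unadjusted p-value under 0.05). The libraries of the groups did not overlap in 3 of the 10 members, against 49.8% of all genes.

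The call of a rise depended on how libraries were scaled. With TMM the median log2 fold change of all genes was 0.01, and with library size alone it was higher by 0.12. Relative to zero, 4 members were then called higher (Dusp6, Dusp4, Egr1 and Jun) and the same 3 lower, and 6 did not overlap between groups, against 42.8% higher, 17.6% lower and 53.2% without overlap among all genes. The deposited FPKM values, which the authors scaled for depth and length, gave 3 higher (Dusp6, Dusp4 and Egr1) and the same 3 lower, against 36.8% and 15.4% of all genes, and 6 without overlap, against 47.3% of all genes. Dusp6, Spred1, Spred2 and Fos kept their direction and their call under all 18 alternatives.

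**Figure D2:**
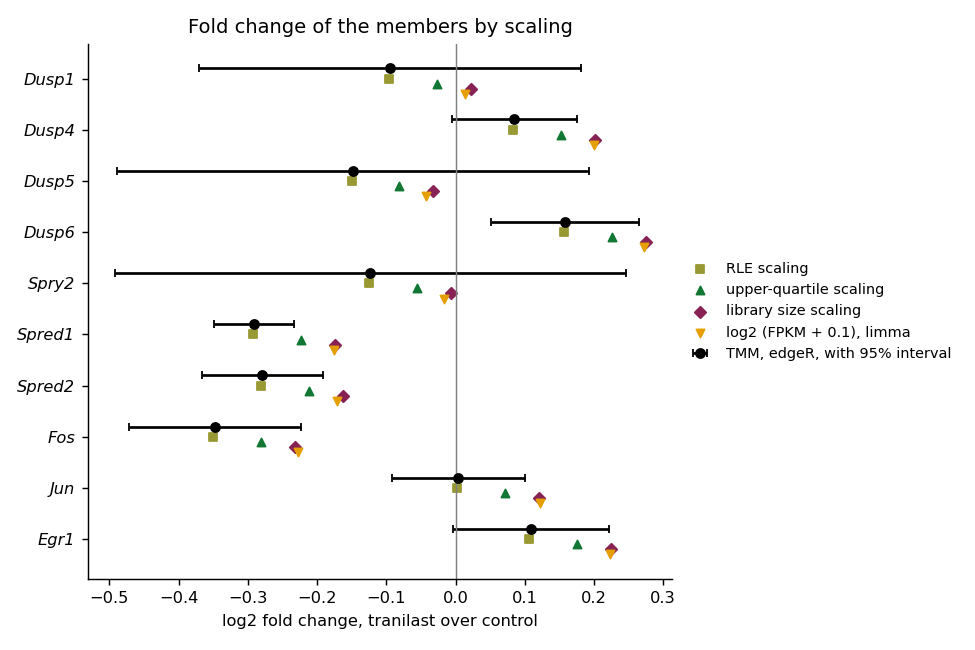
Log2 fold change, tranilast over control, of the 10 members. Black points and bars are the edgeR estimate with TMM and its 95% interval (n = 4 per group), and coloured symbols are the estimates with RLE, upper-quartile and library size scaling and with the deposited FPKM. Library size and FPKM shift all members to the right by about the same amount, and Dusp1 crosses 0 with them.

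The MAPK phosphatases did not move as a group: 1 of 4 was called, against 57% of all tested genes, and their median log2 fold change was -0.0046. Dusp6, which encodes a cytoplasmic phosphatase selective for ERK and induced by ERK, had 50.4, 55.1, 52.5 and 52.8 CPM in control replicates 1 to 4 and 61.1, 60.4, 59.5 and 54.2 CPM in tranilast replicates 1 to 4. Thus 3 tranilast libraries were above every control library, and tranilast replicate 4 was within the control range. Its log2 fold change was 0.16 (95% interval 0.05 to 0.27, adjusted p = 0.0132 in edgeR), and the exact two-sided permutation test of the 8 log2 values gave p = 0.0571. Without tranilast replicate 4 the log2 fold change was 0.20. Over all alternatives it was between 0.14 and 0.27.

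Dusp4, a nuclear phosphatase of ERK and JNK, had between 103.3 and 114.4 CPM in the control group and between 109.5 and 121.6 CPM in the tranilast group. The groups overlapped, with tranilast replicates 1 and 3 within the control range. The log2 fold change was 0.09 (95% interval -0.01 to 0.18, adjusted p = 0.102 in edgeR). It passed the threshold with upper-quartile scaling, library size and FPKM, and without tranilast replicate 3 (log2 fold change 0.11, adjusted p = 0.041 in edgeR). Its direction was higher under every alternative.

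Dusp1 and Dusp5 were scarce. Dusp1, the nuclear phosphatase that acts chiefly on p38 and JNK, had between 111 and 143 counts in the control group and between 89 and 133 in the tranilast group. Its values were 7.89, 8.41, 9.56 and 8.38 CPM in the control libraries and 9.44, 8.69, 7.11 and 6.85 CPM in the tranilast libraries, so that tranilast replicates 3 and 4 were below every control library and tranilast replicates 1 and 2 were within the upper control range. The log2 fold change was -0.09 (95% interval -0.37 to 0.18, adjusted p = 0.56 in edgeR), and it turned to 0.02 with library size and to 0.01 with FPKM. Dusp5, a nuclear phosphatase selective for ERK, had between 4.37 and 7.03 CPM in the tranilast libraries and between 5.65 and 7.29 CPM in the control libraries. Its log2 fold change was -0.15 (95% interval -0.49 to 0.19, adjusted p = 0.454 in edgeR). The coefficient of variation of Dusp5 was 11.1% in the control and 21.3% in the tranilast group, and that of Dusp1 was 8.26% and 15.5%. Counting noise alone, at the control counts, would give about 10.4% for Dusp5 and 8.87% for Dusp1. Whether the spread differed between the groups was not tested. In the GENCODE M21 annotation an antisense gene, AC137853.2, shares 547 exonic bases with Dusp5, and whether the counting used strand is not given in the sources used here.

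**Figure D3:**
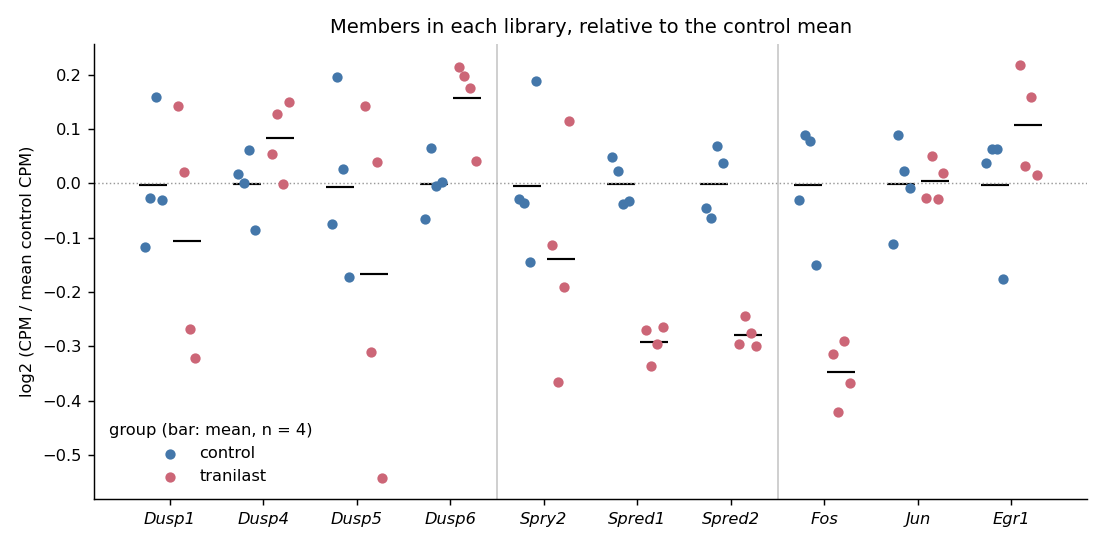
Log2 ratio of the CPM of each library to the mean CPM of the control group, for the 10 members. Points are libraries, bars are group means (n = 4), and grey lines separate phosphatases, Sprouty and Spred genes, and immediate-early factors. The tranilast libraries of Spred1, Spred2 and Fos lie below all control libraries, whereas those of the scarce genes Dusp1, Dusp5 and Spry2 spread widely.

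Both abundant Spred genes fell. Spred1, whose protein is bound to the membrane, recruits the RAS inactivator neurofibromin and thereby lowers RAS activity, had 581.6, 571.3, 547.8 and 549.9 CPM in control replicates 1 to 4 and 466.6, 445.6, 458.4 and 468.5 CPM in tranilast replicates 1 to 4. Every tranilast library was below every control library. It fell by 18.3% (log2 fold change -0.29, standard error 0.028, 95% interval -0.35 to -0.23, adjusted p = 6.5e-08 in edgeR). The exact two-sided permutation p was 0.0286, the smallest that 4 libraries against 4 allow. Over all alternatives the log2 fold change of Spred1 was between -0.31 and -0.17.

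Spred2, a close relative of the same function, had 96.9, 95.7, 105 and 102.7 CPM in the control libraries and 81.5, 84.5, 82.7 and 81.3 CPM in the tranilast libraries. The groups did not overlap, and the tranilast libraries were tightly grouped, with a coefficient of variation of 1.76%. It fell by 17.6% (log2 fold change -0.28, standard error 0.042, adjusted p = 1.6e-05 in edgeR), with a range of -0.30 to -0.16 over all alternatives. The ratio of Spred1 to Spred2 counts within a library was 5.63 ± 0.407 (SD, n = 4) in the control and 5.58 ± 0.222 in the tranilast group, and the groups overlapped (exact two-sided permutation p = 0.857).

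Spry2, a Sprouty protein that acts between receptor and RAF, was the least abundant member. It had between 53 and 64 counts per control library and between 42 and 65 per tranilast library, and the log2 fold change was -0.12 (95% interval -0.49 to 0.25, adjusted p = 0.572 in edgeR). The interval includes the changes seen in Spred1 and Spred2, so a fall of that size in Spry2 is not excluded. Of its relatives, Spred3 had a log2 fold change of -0.32 at between 21 and 54 counts per library (adjusted p = 0.327 in edgeR), Spry4 had at most 3 counts in any library and Spry1 had 0 in all 8.

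The 3 immediate-early factors went in different directions. Fos, which encodes the c-Fos subunit of the AP-1 dimer, fell, Egr1 had higher values that did not pass the test, and Jun, the usual partner of c-Fos, was level. Fos had 48.9, 53.1, 52.7 and 44.9 CPM in control replicates 1 to 4 and 40.1, 37.3, 40.8 and 38.7 CPM in tranilast replicates 1 to 4. Every tranilast library was below every control library, and control replicate 4 was the lowest of its group. In log2 terms Fos changed by -0.35 (standard error 0.059, 95% interval -0.47 to -0.22, adjusted p = 6.7e-05 in edgeR), and the exact two-sided permutation p was 0.0286. Over all alternatives it was between -0.40 and -0.22.

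Egr1, a zinc-finger factor induced through SRF and its ETS-family partners, had 155.6, 158.4, 158.4 and 134.1 CPM in the control libraries and 176.4, 155.1, 169.4 and 153.3 CPM in the tranilast libraries. Tranilast replicates 1 and 3 were above every control library, tranilast replicates 2 and 4 were just below the 3 highest control libraries, and control replicate 4 stood apart at the low end. The log2 fold change was 0.11 (95% interval -0.0037 to 0.22, adjusted p = 0.0918 in edgeR). Without control replicate 4 it was 0.05 (adjusted p = 0.355 in edgeR) and without tranilast replicate 4 it was 0.14 (adjusted p = 0.0421 in edgeR). Egr1 was higher in direction under all alternatives and was called in 7 of 18, with the adjusted p-value between 0.00113 and 0.355.

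Jun had between 79.2 and 91.1 CPM in the control group and between 83.9 and 88.7 CPM in the tranilast group, so that all tranilast libraries lay within the control range. The log2 fold change was 0.00 (95% interval -0.09 to 0.10, adjusted p = 0.948 in edgeR). With library size alone it was 0.12 (adjusted p = 0.0279 in edgeR), and it changed sign when control replicate 1, control replicate 4 or tranilast replicate 2 was left out. Jun has a single exon, and the antisense gene Junos shares 232 exonic bases with it in GENCODE M21.

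Ratios between members within a library do not depend on the scaling, and were examined for all 45 pairs after the data had been seen. In 12 pairs the groups did not overlap, and each of the 12 set Fos, Spred1 or Spred2 against Dusp4, Dusp6, Egr1 or Jun. Fos, Spred1 and Spred2 are the members called lower, so the 12 pairs largely restate those calls. The share of such pairs among all tested genes was not computed, and 49.8% of single genes did not overlap. The ratio of Egr1 to Fos counts was 3.18, 2.98, 3.01 and 2.98 in control replicates 1 to 4 and 4.40, 4.16, 4.15 and 3.96 in tranilast replicates 1 to 4. The control libraries were close to each other in this ratio although control replicate 4 was low in both genes. Fos per Jun was 0.583 ± 0.0393 (SD, n = 4) in the control and 0.458 ± 0.0304 in the tranilast group, and Dusp6 per Fos was 1.06 ± 0.0783 and 1.501 ± 0.0945. Dusp6 per Spred1 was 0.0937 ± 0.00475 in the control and 0.128 ± 0.00858 in the tranilast group, and Dusp6 per Spred2 was 0.527 ± 0.0332 and 0.713 ± 0.0344. The exact two-sided permutation p was 0.0286 for each of these 5 pairs and 0.107 after Benjamini-Hochberg adjustment over the 45, where no lower value was possible for 12 such pairs. Egr1 per Jun was 1.78 ± 0.162 and 1.91 ± 0.178, with overlapping groups (exact permutation p = 0.314). A ratio shows that a pair changed unequally, not which of its genes changed.

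**Figure D4:**
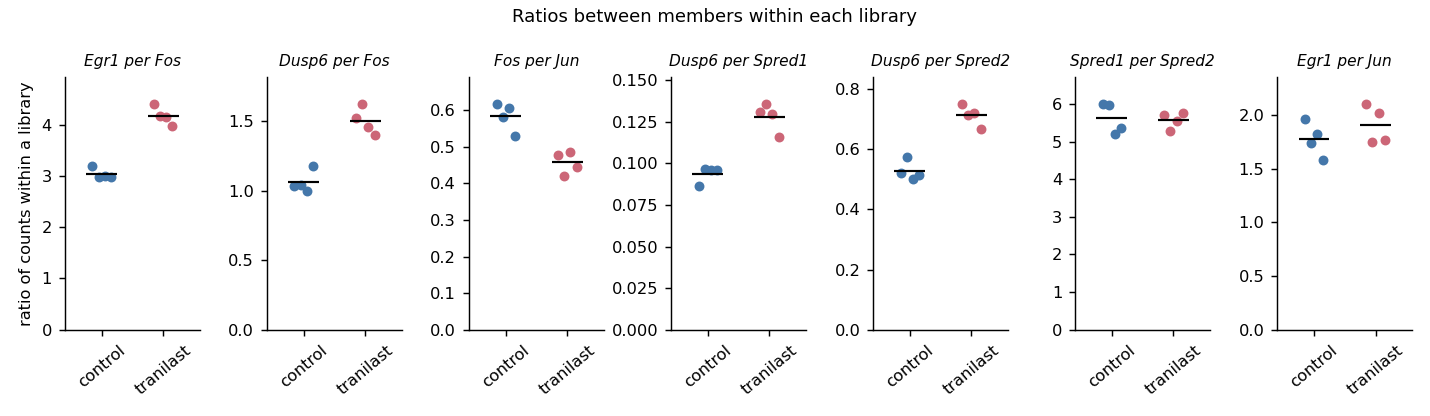
Ratio of the counts of a pair of members within each library, on axes that start at 0, with points for the 4 control and 4 tranilast libraries and bars for their means. The groups do not overlap in the leftmost 5 panels, and overlap for Spred1 per Spred2 (means 5.63 and 5.58) and for Egr1 per Jun (means 1.78 and 1.91).

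The relatives of the members were also uneven. Egr3 fell from 18.7 ± 2.63 to 9.86 ± 0.861 CPM (SD, n = 4; log2 fold change -0.92, adjusted p = 1.3e-06 in edgeR), whereas Egr1 was not called. Egr2 had a log2 fold change of -0.43 (adjusted p = 0.0593 in edgeR), which turned to 0.09 with FPKM and passed the threshold in 4 alternatives (no filter, and without control replicate 1, control replicate 4 or tranilast replicate 1). Fosl2, an AP-1 subunit, fell from 78.4 ± 2.53 to 53.9 ± 1.604 CPM (SD, n = 4; log2 fold change -0.54, adjusted p = 8.5e-09 in edgeR), larger in size than that of Fos, and Fosl1 had a log2 fold change of 0.08 (adjusted p = 0.491 in edgeR). Fosb had between 1 and 15 counts and was not tested. Junb, the most abundant Jun gene at 160 FPKM in the control group, had a log2 fold change of 0.05 (adjusted p = 0.292 in edgeR) and was called higher with upper-quartile, library size and FPKM scaling and without control replicate 3. Jund had a log2 fold change of -0.13 (adjusted p = 0.0151 in edgeR), a call that was lost with upper-quartile, library size and FPKM scaling and when control replicate 3 or either of tranilast replicates 3 and 4 was left out. The difference between these genes and the members was not tested.

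Among 12 other MAPK phosphatases, 9 were tested, 2 rose and 2 fell. For this list and those that follow, 28.2% of all tested genes rose and 28.8% fell with TMM. Dusp3, a small phosphatase of ERK and JNK, rose from 130 ± 5.40 to 184 ± 6.21 CPM (SD, n = 4; log2 fold change 0.49, adjusted p = 3.9e-09 in edgeR), and Dusp22 rose with a log2 fold change of 0.30. Ptpn7, a tyrosine phosphatase of ERK and p38 in blood cells, fell with a log2 fold change of -0.49 (adjusted p = 2.8e-08 in edgeR), and Dusp16, which acts on JNK and p38, with one of -0.30. The median of the 9 was 0.17, and that of all tested genes was 0.01.

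Of 24 other inhibitors of receptor and RAS signalling, 19 were tested, 3 rose and 7 fell, and the list's median was -0.10 in log2. With library size alone 5 rose and 5 fell, against 42.8% and 17.6% of all genes. The difference between the list's median and that of all genes was -0.11 under both scalings. The largest falls were those of Rasal1, a RAS GTPase-activating protein (log2 fold change -0.78), the adaptor Dok2 (-0.56) and the cytokine signalling inhibitor Socs3 (-0.48). Dok1 (0.33), Lztr1 (0.27) and the RAS GTPase-activating protein Rasa3 (0.18) rose. These 6 calls held under every alternative.

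Upstream of the members, 9 of 28 growth factor receptors and ligands were tested, of which 3 rose and 4 fell with TMM. With library size alone 3 rose and 1 fell, against 42.8% and 17.6% of all genes. With log2 FPKM plus 1, 3 rose and 1 fell, against 36.8% and 15.4%. The difference between the list's median and that of all genes was -0.11 with TMM and with library size. With log2 FPKM plus 1 that difference was 0.066. Csf1r, the CSF-1 receptor of macrophages, was by far the most abundant, at 2568 CPM in the control and 2305 CPM in the tranilast group (log2 fold change -0.16, adjusted p = 6.8e-06 in edgeR), but it was not called with library size, and its sign turned with FPKM (0.01). Epha2, an ephrin receptor, had the largest change, from 5.80 to 33.4 CPM with a log2 fold change of 2.53. Csf3r (0.67) and Insr (0.38) also rose, and Axl (-0.45) and Csf2rb (-0.21) fell. The call of Csf2rb was lost with upper-quartile, library size and FPKM scaling and when any of 4 libraries was left out, namely control replicates 1 and 2 and tranilast replicates 1 and 4, and its sign turned with FPKM.

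In the RAS to ERK cascade itself 26 of 31 genes were tested, 9 rose and 7 fell with TMM, and the median log2 fold change was -0.01. With library size alone 11 rose and 5 fell, against 42.8% and 17.6% of all genes. With log2 FPKM plus 1, 10 rose and 5 fell, against 36.8% and 15.4%. The difference between the list's median and that of all genes was -0.015 with TMM and with library size. With log2 FPKM plus 1 that difference was 0.049. Map2k1, which encodes MEK1, fell from 288 to 216 CPM (log2 fold change -0.42, adjusted p = 1.9e-07 in edgeR). Of the RAS activators, Rasgrp4 (-0.61) and Rasgrp3 (-0.43) fell, whereas Sos1 (0.18) and Sos2 (0.21), named after their values were seen, rose. The adaptors Gab3 (1.11, from 0.662 to 1.43 CPM) and Gab2 (0.56) and the GTPase Rras (0.38) rose. Rras lost its call when control replicate 1, 2 or 4 or tranilast replicate 3 or 4 was left out, and Rasgrp4 lost it with log2 FPKM plus 0.1.

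Of 26 substrates and kinases downstream of ERK, 24 were tested, 8 rose and 12 fell. Of the genes that fell most, Elk3, an ETS-family partner of SRF, had a log2 fold change of -0.70, Srf itself one of -0.43 (from 103 to 76.2 CPM), and Erf, an ETS-family repressor that ERK inactivates, one of -0.52. The kinases Rps6ka2 (0.77), Mknk2 (0.74) and Mknk1 (0.69) rose. These 6 calls held under every alternative. Other genes of the same kind, named after their values were seen, went both ways with TMM. The ETS-family genes Elk4 (0.23) and Etv1 (0.26) and the SRF cofactor gene Mrtfb (0.49) rose. The ETS-family genes Ets2 (-0.21) and Etv6 (-0.26), the SRF cofactor gene Mrtfa (-0.19) and Atf1 (-0.12) fell. Elk1 (-0.04), Etv4 (0.22), Etv5 (-0.01) and Creb1 (0.08) were not called. With library size alone 9 genes of the list rose and 8 fell, against 42.8% and 17.6% of all genes. The difference between the list's median and that of all genes was -0.086 both there and with TMM. With log2 FPKM plus 1, 8 rose and 4 fell, against 36.8% and 15.4% of all genes, and that difference was -0.002.

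The wider set of 57 other immediate-early genes had 51 tested members, of which 10 rose and 24 fell. Among all tested genes 28.2% rose and 28.8% fell. The list's median was -0.13 in log2 against 0.01 for all tested genes. With library size alone 13 rose and 15 fell, against 42.8% and 17.6% of all genes. The difference between the list's median and that of all genes was -0.14 under both scalings. Myc (-1.62, from 2.33 to 0.76 CPM), Arc (-0.97) and Egr3 were the lowest. Plk2 (1.28), Btg2 (1.09) and Gadd45a (0.72), which are also known as targets of p53, were the highest. Gadd45a, at 1.49 and 2.44 CPM, lost its call under the replicate block and when any of control replicates 1 and 2 and tranilast replicates 1, 2 and 4 was left out.

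Among 14 AP-1 partners and regulators of Jun, 11 were tested, 4 rose and 3 fell. Atf4, the effector of the integrated stress response (0.46), Jdp2, an AP-1 repressor (0.41), and Mafg (0.31) rose. Cops5 (-0.37), Dedd (-0.23) and Cop1, a ubiquitin ligase of Jun (-0.17), fell, and the calls of Dedd and Cop1 were lost with upper-quartile, library size and FPKM scaling, that of Cop1 also without tranilast replicate 4. Of 14 genes of the JNK and p38 branches 10 were tested. Mapk8 (0.20) and Mapk9 (0.17), which encode JNK1 and JNK2, and the JNK activator Map2k7 (0.14) rose, and Mapkapk2, the kinase downstream of p38, fell (-0.33, adjusted p = 3.9e-09 in edgeR). In all, 4 of the 10 rose and 1 fell.

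**Figure D5:**
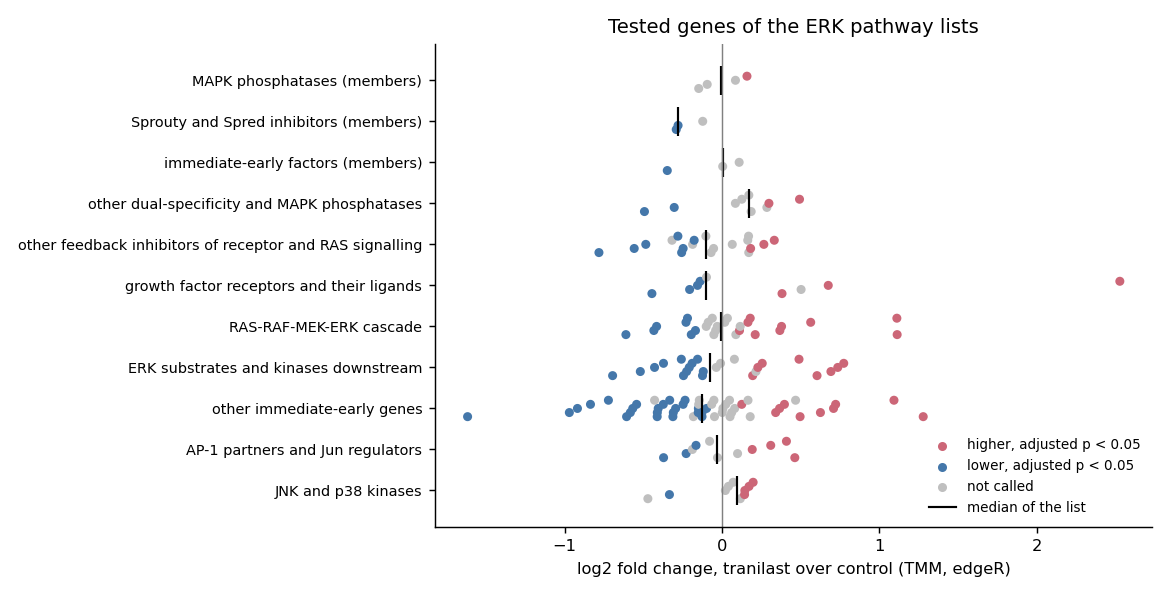
Log2 fold change (TMM, edgeR) of every tested gene in the 3 groups of members and in 8 further lists of the pathway, coloured by direction where the adjusted p-value was under 0.05. Vertical marks are list medians. The members lie between -0.35 and 0.16, whereas the other immediate-early genes reach from Myc at -1.62 to Plk2 at 1.28.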

How the data were processed

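RNA-seq libraries from 8 samples labelled as liver were grouped by their titles into control and tranilast, with replicates numbered 1 to 4 in each. The study describes poly-A enriched, paired-end libraries. The aligner, the counting tool, its use of strand and the genome build are not given in the sources used here. The authors deposited an estimated count per gene, which is not always whole (between 92.7% and 93.9% of the values of a library were), and an FPKM value scaled for length and depth. All columns of values were matched to a sample.

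Estimated counts were rounded, filtered with filterByExpr and normalized with TMM factors. The quasi-likelihood test of edgeR 4.0.16 was run on all 10770 genes left, without a covariate and with Benjamini-Hochberg adjustment. A gene was called at an adjusted p-value under 0.05, and the fold threshold of 1.5 (log2) was taken from the study, which names limma. Intervals are 95% intervals of the fit. CPM use the TMM-scaled library size, except for the limit that a count of 0 allows, which uses the library total without the TMM factor. For each member log2(CPM + 0.1) was permuted exactly over the 8 libraries (two-sided). No source says that replicates within a group are separate animals. The p-values set the group difference against the spread between these libraries and need not hold across animals. Replicates differed by more than sampling noise (chi-square per degree of freedom of at least 2.52 for each pair within a group).

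The members, the 8 other lists of the pathway and the marker lists were chosen with earlier results of these data known. In the other lists, genes were named when called, with a mean of at least 1 CPM, and among the 3 highest or lowest log2 fold changes, and relatives of the members were also named. Alternatives were RLE, upper-quartile and library size scaling, DESeq2 1.42.0, limma-voom and limma trend on log2 FPKM plus 1 or 0.1 (limma 3.58.1), omitting the filter, a minimum of 10 counts per library, the replicate number as a block and each library left out in turn. FPKM fold changes are on the log2(FPKM + pseudocount) scale and understate those of low genes. The code was tested on simulated data. Exonic overlaps are those of GENCODE M21 on GRCm38, matched by Ensembl identifier, and promoters those of RefSeq. R 4.3.3, Python 3.11.15 and matplotlib 3.10.9 were used.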

Additional observations from a re-analysis of the deposited data

Results flagged for a closer look

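Control replicate 4 was far from the other control libraries in Egr1, at 134.1 CPM against 155.6 to 158.4 CPM (ratio of the gap to the range 0.893, above Dixon's 95% critical value for 4 libraries). It was 1 of 20 groups of 4 examined, and chance gives about 1 in 20. The same library was also the lowest control library for Fos (44.9 CPM against 48.9 to 53.1) and for Dusp4 (103.3 CPM against 109.6 to 114.4), neither of which passed that limit. It was the highest for Spry2 (4.47 CPM against 3.54 to 3.84).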

How the results depend on the processing

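Dusp6, Spred1, Spred2 and Fos kept direction and call in all 18 alternatives, and Dusp5 and Spry2 stayed uncalled in the same direction. The number of members called higher, 1 with TMM, was 3 with upper-quartile scaling, 4 with library size, 3 with limma trend on log2 FPKM plus 1 or plus 0.1, 2 with no filter and 2 with the replicate block, and between 1 and 2 with a library left out (2 without tranilast replicate 3, through Dusp4, and 2 without tranilast replicate 4, through Egr1). Genes called higher among all tested were 3039 of 10770 with TMM and 3882 of 10770 with upper-quartile scaling. They were 3068 of 15421 with no filter and 2957 of 10770 with the replicate block. With library size they were 42.8% and with FPKM 36.8%. The number of members called lower was 3 throughout, against 28.8% of all genes with TMM, 17.6% with library size and 15.4% with FPKM. The number whose groups do not overlap, 3 with TMM, was 6 with upper-quartile scaling, library size and both FPKM fits. It was 4 without control replicate 2 and 4 without tranilast replicate 4. Among all genes the share was 49.8% with TMM, 53.2% with library size and 47.3% with FPKM, and it was not computed for the other settings. Dusp1 turned from -0.09 to 0.022 with library size, to 0.013 with log2 FPKM plus 1 and to 0.014 with log2 FPKM plus 0.1. Jun turned from 0.00 to a lowest value of -0.032 without control replicate 1, and its highest value with a library left out was 0.034 (without control replicate 2). Scaling factors shift all genes by about the same amount, 0.12 in log2 between TMM and library size. The deposited FPKM do not: Csf2rb went from -0.21 with TMM to as much as 0.18 with FPKM. Higher genes made up 49.5% of all calls under TMM, 62.6% under upper-quartile, 70.9% under library size and 70.5% under log2 FPKM plus 1. Which scaling is right for these libraries was not tested. The replicate numbers are not said to mark a shared animal or batch. Deviations of same-numbered libraries correlated by between -0.056 and 0.11 over genes, and those of differently numbered libraries by between -0.18 and 0.18. Same-numbered libraries were thus no more alike than others, but these correlations cannot show whether any libraries shared an animal or batch. With the replicate block 6009 genes were called in place of 6143, and of the members Egr1 was called in addition (log2 fold change 0.11, adjusted p = 0.0319 in edgeR). For Spry2, with at most 65 counts per library, the standard error was 0.18, against 0.028 for Spred1.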
